A study of Gallus gallus with 28 samples.

Results

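The basilar papilla is the hearing epithelium of the chicken, and the series sequenced its RNA with and without streptomycin, an antibiotic of the aminoglycoside class, which is toxic to hair cells. The samples described here are the untreated papillae of the first 2 labelled times, 2 at 0 h and 2 at 24 h, chosen by their labels alone and making 4 of 28 samples. The series holds 13 untreated and 15 streptomycin-treated samples at 8 times. The labels' protocol names dissection, 24 h in streptomycin and a recovery of varying length, and gives the treatment of control papillae as none. Both control groups are whole Gallus gallus papillae that differ by the labelled 24 h, and the labels give no age, strain, number of papillae or number of animals. The labels do not say whether a control papilla labelled 0 h had itself been kept for a day after dissection, as its treated counterpart was, so the 24 h described here may not be the first 24 h outside the animal. The text of the series calls the 2 samples of a time biological. Nothing says whether they came from separate animals or cultures. The spread behind each p-value is that between samples of the same treatment and time, pooled over the 28 samples of the series, and it may be technical.

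The epithelium holds mechanosensory hair cells, which turn hair bundle deflection into transmitter release, and supporting cells, which surround them, secrete the tectorial membrane and share ions through gap junctions. Birds replace lost hair cells from supporting cells, which can divide or convert directly, and ATOH1 is the transcription factor that starts the hair cell programme. Among the programmes known from cultured cells is the integrated stress response, in which ATF4 drives amino acid synthesis genes. Another is the hypoxia response, in which HIF drives glycolysis genes and VEGFA.

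Values are RPKM, the reads of a gene per kilobase of its length and per M reads of the library, as computed by the authors. Libraries of the whole series held 16.48 to 38.17 M alignments, and the 4 described here 28.85 and 19.29 M at 0 h and 25.14 and 19.93 M at 24 h. Log2(RPKM + 1) correlated across features at 0.9845 between the 2 samples at 0 h and 0.9766 between those at 24 h. The labelled tissue could be checked at 0 h by OTOF, the synaptic calcium sensor of hair cells, at 85.1 and 99.1 RPKM. The transduction channel gene TMC2 stood at 39.9 and 39.1 RPKM there, the hair cell myosin gene MYO7A at 28.4 and 23.4 RPKM, the supporting cell factor gene SOX2 at 43.7 and 49.3 RPKM and TECTA, which encodes a protein of the tectorial membrane, at 241 and 249 RPKM. Values with ± below are fitted differences of mean log2(RPKM + 1), 24 h minus 0 h, with their standard errors, a scale that understates folds of genes with low values. A gene is said to rise or fall where its adjusted p from limma, over the 12195 features tested, is under 0.05. Because papillae were sequenced whole, fewer cells of a type and less RNA of that type per cell cannot be told apart.

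Control papillae differed widely between 0 and 24 h. Genes of amino acid synthesis, ribosome production and the hypoxia response were among those that rose, and genes of supporting cells, hair cells and growth factor signalling among those that fell. In the comparison of 24 h with 0 h, 3153 features passed, 25.9% of those tested. Of these, 1755 rose (14.4%) and 1398 fell (11.5%), and these 2 shares are the background for the list counts in that comparison. On the log2(RPKM + 1) scale 495 rises and 369 falls were at least 2-fold. The median difference over all features tested was 0. With any 1 of the 4 libraries left out, 785 to 1291 features rose and 668 to 922 fell, with the fewest of both when the first 0 h sample was left out. The falls were 749 without the second 0 h sample and 879 without the first 24 h sample, and without the second 24 h sample 1073 features rose and 922 fell. In those fits the shares over all features were 6.44% to 10.6% for rises and 5.48% to 7.56% for falls, the background for each count given with a library left out. With the spread estimated from these 4 samples only, 1184 rose and 865 fell. In 7655 features, 62.8% of those tested, the 2 samples of one time both lay above the 2 of the other. The same held for 3152 of the 3153 features that passed. Lack of overlap in a gene that passed, given below as description, is therefore no further support for it.

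**Figure D1:**
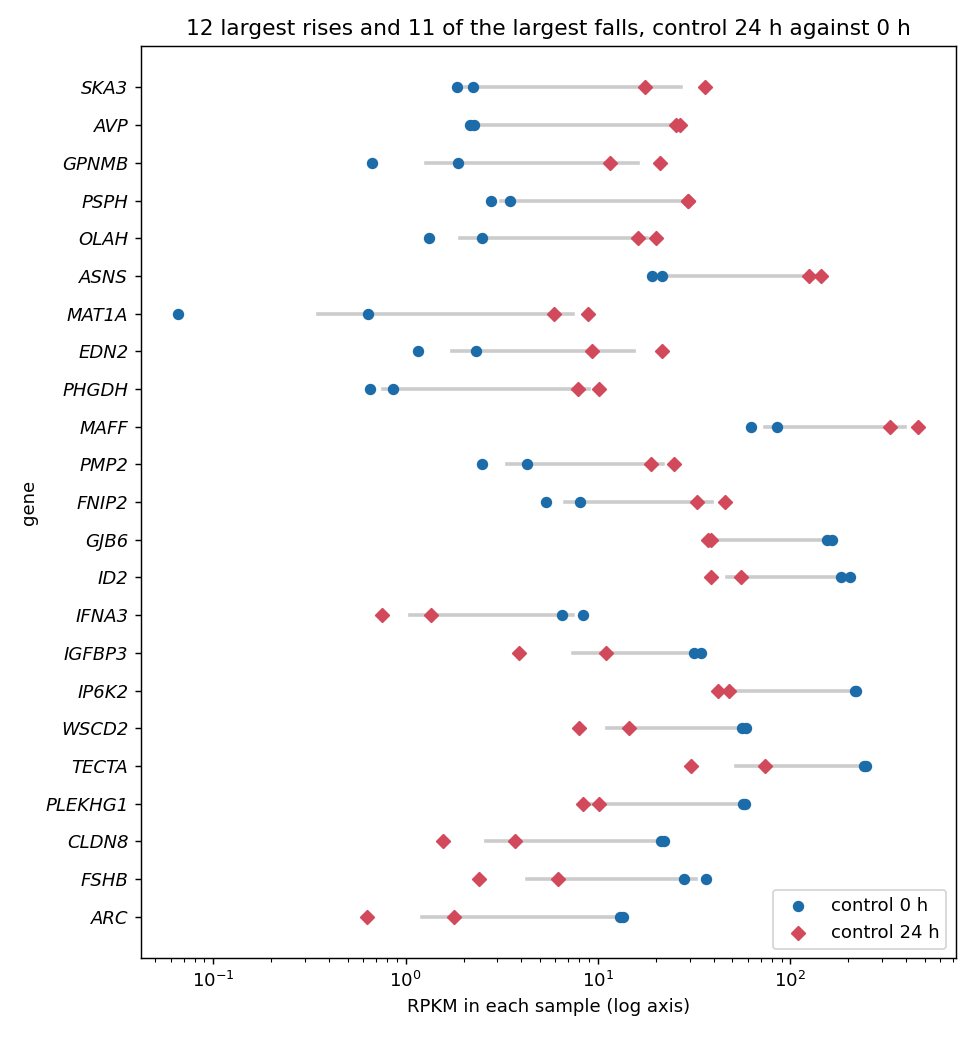
RPKM on a log axis for the 12 largest rises and 11 of the 12 largest falls, with circles for the 2 control samples at 0 h, diamonds for the 2 at 24 h and grey lines joining the means. The 2 times do not overlap in any of the genes shown, which the rule for choosing them required, and the samples of 1 time lie farthest apart for MAT1A at 0 h.

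Genes that build amino acids were among the largest rises. ASNS, which encodes asparagine synthetase, had 19.2 and 21.4 RPKM at 0 h and 144 and 126 RPKM at 24 h, a 6.64-fold higher mean (2.67 ± 0.21, adjusted p = 2.12e-06). All 3 enzymes of serine synthesis from a glycolytic intermediate rose with it. The first of them, PHGDH, stood at 0.656 and 0.865 RPKM at 0 h and 7.88 and 10.2 RPKM at 24 h, from 17 and 15 reads to 178 and 180 reads (2.50 ± 0.42, adjusted p = 0.000471). The next, PSAT1, had 3.04 and 2.58 RPKM at 0 h and 18.6 and 13.8 RPKM at 24 h (2.16 ± 0.30, adjusted p = 0.000111). The last, PSPH, had 2.79 and 3.48 RPKM at 0 h and 29.5 and 29.3 RPKM at 24 h (2.88 ± 0.26, adjusted p = 1.04e-05). In each of these 4 genes both 24 h samples lay far above both 0 h samples, with little spread within a time. ATF4, the transcription factor at the centre of the integrated stress response, was already abundant at 218 and 246 RPKM at 0 h and reached 596 and 828 RPKM at 24 h (1.60 ± 0.20, adjusted p = 4.9e-05). Over the list of the integrated stress and unfolded protein response, 17 of 36 members tested rose and 1 fell, with a median of 0.50. The member that fell was PDIA4, a folding enzyme of the endoplasmic reticulum, at 88 and 82.3 RPKM at 0 h and 61.7 and 44.2 RPKM at 24 h (-0.69 ± 0.20, adjusted p = 0.0189). Its call ended when any of 3 libraries was left out (adjusted p up to 0.197). The number of members that rose was 15 to 18 with any 1 library left out. MAT1A, which encodes an enzyme that makes S-adenosylmethionine, rose from 0.0655 and 0.636 RPKM to 8.87 and 5.89 RPKM (2.64 ± 0.41), and its 0 h values rest on 2 and 13 reads.

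Other large rises were spread over several functions. SKA3, a component of the spindle and kinetochore complex, had 1.84 and 2.25 RPKM at 0 h and 17.5 and 36.2 RPKM at 24 h, a 13.1-fold higher mean (3.11 ± 0.40, adjusted p = 5.68e-05). Its 2 samples at 24 h were far apart, yet both lay well above 0 h. The vasopressin gene AVP, whose bird product is vasotocin, had 2.17 and 2.26 RPKM at 0 h and 25.6 and 26.8 RPKM at 24 h (3.08 ± 0.44, adjusted p = 0.000136). GPNMB, which encodes a membrane glycoprotein of lysosomes and melanosomes, stood at 0.668 and 1.88 RPKM at 0 h and 11.5 and 20.9 RPKM at 24 h (2.92 ± 0.34, adjusted p = 4.14e-05). MAFF, a small Maf transcription factor, was the most abundant of the 12 largest rises at 62.8 and 85.3 RPKM at 0 h and 330.0 and 464 RPKM at 24 h (2.40 ± 0.26, adjusted p = 2.26e-05). Of the rest, OLAH encodes a thioesterase of fatty acid synthesis, EDN2 an endothelin peptide, PMP2 a fatty acid binding protein of myelin and FNIP2 a folliculin partner, and their differences ran from 2.38 to 2.73. In RefSeq's annotation of the GRCg7b assembly, the span of PSPH overlaps that of CCT6A, that of OLAH overlaps ACBD7 and that of FNIP2 overlaps C4orf45. The same holds for 70 of the 205 genes open to naming here. Neither the annotation nor the strand handling of the authors' counting is given in the sources used here, so reads of such neighbours cannot be told apart.

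Ribosomal protein genes rose almost as a block. Of 60 tested, 56 rose and 0 fell (limma, 0 at an unadjusted p under 0.05), and their median difference was 0.92. RPL30, a protein of the large subunit, had 297 and 289 RPKM at 0 h and 564 and 698 RPKM at 24 h (1.10 ± 0.20, adjusted p = 0.00091). RPL9, of the same subunit, had 176 and 191 RPKM at 0 h and 333 and 478 RPKM at 24 h (1.12 ± 0.21). RPS21, of the small subunit, had 84.7 and 77.2 RPKM at 0 h and 141 and 219 RPKM at 24 h (1.11 ± 0.26). The summed level of the list was 24063 to 25698 RPKM at 0 h, 38749 RPKM in the first 24 h sample and 55621 RPKM in the second, so the size of the rise differs between the 2 samples at 24 h. Without that second sample 17 of the 60 rose, and without the first 0 h sample 25. Without the second 0 h sample 41 rose, without the first 24 h sample 58, and with the 4 samples alone in the fit 28. The call of RPS21 ended without the second 24 h sample (adjusted p = 0.0809). Several ribosomal protein genes have near-identical copies, and how the authors' counting split their reads is not given. The RPKM of all features, these genes included, summed to 293425 and 297369 at 0 h and 334144 and 375134 at 24 h. Its bearing on the size of the rise was not tested.

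Genes that assemble ribosomes rose with them. Of 60 tested, 35 rose and 0 fell (limma, 0 at an unadjusted p under 0.05), with a median of 0.67. DKC1, which encodes the pseudouridine synthase of small nucleolar RNPs, had 16 and 22 RPKM at 0 h and 47.8 and 60.7 RPKM at 24 h (1.47 ± 0.23, adjusted p = 0.000279). The ribosome biogenesis factor gene MAK16 had 18.5 and 21.4 RPKM at 0 h and 51.1 and 61.3 RPKM at 24 h (1.45 ± 0.18). The helicase gene DDX18 had 11.7 and 11 RPKM at 0 h and 32 and 28.7 RPKM at 24 h (1.34 ± 0.23). All 3 had both 24 h samples above both 0 h samples. Leaving out 1 library gave 21 to 30 rises, the fewest without the first 0 h sample. Other large protein machines held fewer calls. Of 31 proteasome genes 4 rose and 0 fell (1 at an unadjusted p under 0.05), with a median of 0.13, and 1 or 2 rose with 1 library left out. Of 65 nuclear genes of oxidative phosphorylation 3 rose and 0 fell (2 at an unadjusted p under 0.05), with a median of 0.26. These rises ran from 0 (without the first 0 h sample) to 5 (without the first 24 h sample) with 1 library left out, and numbered 7 to 10 after median-of-ratios rescaling, with control samples only or with the replicate block by sample number. Over all 12195 features, 1835 rose after that rescaling, 1813 with control samples only and 2079 with the replicate block. Of the 5 mitochondrially encoded genes none passed in limma (2 at an unadjusted p under 0.05, both higher), with a median of 0.44.

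Genes of glycolysis and the hypoxia response rose more often than they fell, 12 against 1 of 47 tested, with a median of 0.36. NDRG1, a hypoxia-induced gene, had 248 and 341 RPKM at 0 h and 1507 and 1533 RPKM at 24 h, a 5.16-fold higher mean (2.38 ± 0.37, adjusted p = 0.000281). VEGFA, the endothelial growth factor, had 31.1 and 32.1 RPKM at 0 h and 124 and 131 RPKM at 24 h (1.98 ± 0.29, adjusted p = 0.000154). Neither gene overlapped between the times. LDHA, which encodes lactate dehydrogenase, had 992 and 1210.4 RPKM at 0 h and 2080.4 and 2326 RPKM at 24 h (adjusted p = 0.0142). The lactate carrier gene SLC16A1 had 7.09 and 11.5 RPKM at 0 h and 24.7 and 24.2 RPKM at 24 h (1.34 ± 0.33, adjusted p = 0.00768). Both of these calls ended without the first 0 h sample (adjusted p = 0.117 and 0.104), and that of LDHA also without the second 24 h sample (adjusted p = 0.0801). The member that fell was PDK4, a kinase that restrains pyruvate entry into mitochondria, at 17.7 and 8.28 RPKM at 0 h and 4.72 and 5.28 RPKM at 24 h (-1.13 ± 0.33). Its 2 samples at 0 h lay far apart, and the call ended without the first of them (adjusted p = 0.262). Without the first 0 h sample 4 members rose and without the second 24 h sample 7.

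Further groups rose in part. Of 49 lysosome and autophagy genes 12 rose and 1 fell, with a median of 0.22. The lysosomal protease gene CTSL2 had 353 and 354 RPKM at 0 h and 1107 and 1286 RPKM at 24 h (1.75 ± 0.25, adjusted p = 0.000121). The autophagosome gene GABARAPL1 had 68.5 and 73 RPKM at 0 h and 261 and 217 RPKM at 24 h (1.73 ± 0.31). ATP6V0D2, a subunit of the proton pump, had 16.6 and 21.7 RPKM at 0 h and 68.6 and 71.9 RPKM at 24 h (1.83 ± 0.30). All 3 were well apart between the times. The lysosomal gene that fell was SCARB2, a receptor for lysosomal enzyme transport, at 36.2 and 33.3 RPKM at 0 h and 22.2 and 22.1 RPKM at 24 h, a call that ended without the first 0 h sample (adjusted p = 0.0544). Among actin genes and targets of the serum response factor, 9 of 30 rose and 0 fell (1 at an unadjusted p under 0.05), with a median of 0.30. The actin crosslinker gene ACTN1 had 67.1 and 73.7 RPKM at 0 h and 216 and 203 RPKM at 24 h (1.56 ± 0.21, adjusted p = 9.26e-05). TAGLN, which encodes an actin-binding protein of smooth muscle, stood at 2.15 and 0.946 RPKM at 0 h and 8.87 and 15.8 RPKM at 24 h (2.38 ± 0.36, adjusted p = 0.000193). Left-out libraries took the lysosome rises down to 6 (without the second 24 h sample) and 7 (without either 0 h sample), and the actin rises down to 3 (without the first 0 h sample) and 4 (without the first 24 h sample).

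Of 20 circadian clock genes, 7 rose and 3 fell, with a median of 0.33, at labelled times that are 24 h apart. CRY1, a repressor of the clock, had 28.3 and 30.9 RPKM at 0 h and 96.2 and 90.7 RPKM at 24 h (1.63 ± 0.17, adjusted p = 2.18e-05). PER3, of the same arm, had 20.2 and 24.6 RPKM at 0 h and 39.7 and 49.1 RPKM at 24 h (0.95 ± 0.19), both higher at 24 h. ARNTL, which encodes the activator BMAL1, had 10.9 and 13 RPKM at 0 h and 7.64 and 8.33 RPKM at 24 h (-0.52 ± 0.16, adjusted p = 0.0234). RORB, a nuclear receptor, had 16.4 and 7.83 RPKM at 0 h and 4.1 and 1.59 RPKM at 24 h (-1.77 ± 0.31, adjusted p = 0.000618). Both of these were lower in the 24 h samples. The call of ARNTL ended when any 1 of 3 libraries was left out (adjusted p up to 0.178), and 2 clock genes rose without the first 0 h sample and 3 without the second 24 h sample. Clock hours of collection are not given in the labels.

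Stress lists other than that of ATF4 were mixed. Of 24 heat shock genes 5 rose and 4 fell (median -0.01), and 3 or 4 rose with 1 library left out. HSF1, the master regulator of the response, stood at 6.6 and 7.33 RPKM at 0 h and 17.7 and 14.6 RPKM at 24 h (1.10 ± 0.15). HSPA8, a constitutive chaperone gene, stood at 679.9 and 723 RPKM at 0 h and 352 and 411 RPKM at 24 h (-0.88 ± 0.22), a call that ended without the second 0 h or first 24 h sample (adjusted p = 0.0536 and 0.0628). Of 24 oxidative stress genes 6 rose and 2 fell (median 0.10), and 2 to 4 rose with 1 library left out. SLC7A11, the cystine importer, had 0.657 and 2.09 RPKM at 0 h and 8.79 and 6.53 RPKM at 24 h (1.92 ± 0.34). GCLM, a subunit of the enzyme of glutathione synthesis, had 23.5 and 28.5 RPKM at 0 h and 74.9 and 69.6 RPKM at 24 h (1.44 ± 0.18). TXNRD1, the cytosolic thioredoxin reductase, had 92.2 and 89.4 RPKM at 0 h and 25.6 and 22.9 RPKM at 24 h (-1.86 ± 0.27). The last went the other way, although all 3 are known to answer to oxidants. Of 32 genes of p53 and apoptosis 2 rose and 7 fell (median 0.01), and 3 to 5 fell with 1 library left out. TP53INP1, a p53 target, stood at 8.43 and 7.36 RPKM at 0 h and 4.58 and 4.28 RPKM at 24 h (-0.71 ± 0.15).

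With all libraries in the fit, the mitosis list held a larger share of rises than all genes tested. Of 46 mitosis genes 15 rose and 1 fell, with a median of 0.47 and a positive difference in 42. CDK1, the kinase that starts mitosis, had 3.16 and 2.65 RPKM at 0 h and 12.6 and 11.5 RPKM at 24 h (1.74 ± 0.33, adjusted p = 0.00131), from 57 and 32 reads to 198 and 142 reads. Its partner gene CCNB2 had 2.8 and 3.74 RPKM at 0 h and 10.2 and 9.86 RPKM at 24 h (1.38 ± 0.26, adjusted p = 0.00108). The activator gene CDC20 had 0.754 and 0.652 RPKM at 0 h and 3.05 and 3.49 RPKM at 24 h (1.32 ± 0.25, adjusted p = 0.00109). All 3 stayed at low levels but did not overlap between the times. MAD2L1, a spindle checkpoint gene, was the member that fell, at 5.74 and 6.46 RPKM at 0 h and 3.39 and 3.33 RPKM at 24 h (-0.70 ± 0.21), a call that ended when any 1 library was left out (adjusted p up to 0.127). The rises numbered 6 without the first 24 h sample, 7 without the first 0 h sample, 9 without the second 0 h sample and 14 without the second 24 h sample. Of 41 replication genes 4 rose and 2 fell (median 0.03), and 0 to 2 rose with 1 library left out. RRM1, a subunit of ribonucleotide reductase, fell from 19.3 and 17.5 RPKM to 9.62 and 10.1 RPKM (-0.84 ± 0.16, adjusted p = 0.0016). PCNA, the replication clamp, stood at 45.9 and 44.3 RPKM at 0 h and 35.5 and 38.6 RPKM at 24 h (-0.28 ± 0.21, adjusted p = 0.377). Of 17 G1 cyclins and CDK inhibitors 1 rose and 2 fell (median 0.03). The riser was CDK6, a G1 kinase, at 12.7 and 11 RPKM at 0 h and 21.2 and 20.2 RPKM at 24 h (0.76 ± 0.14).

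Supporting cell genes had the lowest median of the 41 lists, -0.83, with 13 of 24 falling and 1 rising. GATA3, a transcription factor of the developing and mature ear, had 35.8 and 30.8 RPKM at 0 h and 8.66 and 6.54 RPKM at 24 h, a 4.38-fold lower mean at 24 h (-2.00 ± 0.26, adjusted p = 5.87e-05). FGFR3, the FGF receptor of supporting cells, had 28.7 and 20.5 RPKM at 0 h and 5.44 and 5.64 RPKM at 24 h (-1.95 ± 0.20, adjusted p = 1.24e-05). GJB6, which encodes the gap junction protein connexin 30, had 165 and 154 RPKM at 0 h and 37.4 and 38.7 RPKM at 24 h (-2.04 ± 0.32, adjusted p = 0.000309). In these 3 genes both 0 h samples lay far above both 24 h samples, and the samples of a time lay close together. TECTA fell most within the list, from 241 and 249 RPKM to 74.2 and 30.4 RPKM (-2.34 ± 0.61, adjusted p = 0.01). Its call ended without either 0 h sample or without the second 24 h sample (adjusted p = 0.0513 to 0.116). Its span overlaps that of TBCEL. SOX2, which marks supporting cells and progenitors, had 43.7 and 49.3 RPKM at 0 h and 19.3 and 25.1 RPKM at 24 h (-1.04 ± 0.20, adjusted p = 0.00144). The gene of the list that rose was PROX1, a transcription factor, at 5.7 and 8.16 RPKM at 0 h and 10.03 and 10.4 RPKM at 24 h (0.51 ± 0.18). Its call ended under several alternatives (adjusted p up to 0.394). With any 1 library left out 10 or 11 of the 24 fell. Of 17 Notch genes 3 fell and 0 rose (1 at an unadjusted p under 0.05), with a median of -0.07, among them the receptor gene NOTCH1 at 22.6 and 18.5 RPKM at 0 h and 8.96 and 9.5 RPKM at 24 h (-1.07 ± 0.16, adjusted p = 0.000199).

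Of 52 hair cell genes tested, 22 fell and 2 rose, with a median of -0.49. TMC2 had 39.9 and 39.1 RPKM at 0 h and 18.9 and 18.8 RPKM at 24 h, the samples of each time nearly equal (-1.03 ± 0.17, adjusted p = 0.000451). Lower values at 24 h were also seen for MYO7A, at 28.4 and 23.4 RPKM at 0 h and 14.4 and 14.7 RPKM at 24 h (-0.79 ± 0.21, adjusted p = 0.0123). OTOF did not pass, at 85.1 and 99.1 RPKM at 0 h and 52.7 and 67 RPKM at 24 h (-0.62 ± 0.37, adjusted p = 0.232). Its samples did not overlap, which held for 62.8% of all features tested and is no support for a fall. The most abundant member at 0 h was CALB1, a calcium buffer that other epithelia also make, at 835 and 776 RPKM at 0 h and 467 and 229 RPKM at 24 h (-1.30 ± 0.40, adjusted p = 0.0256). OCM2, an oncomodulin gene with close relatives, had 755 and 737 RPKM at 0 h and 325 and 414 RPKM at 24 h (-1.02 ± 0.37, adjusted p = 0.0483). The 2 members that rose were MYO1C, the myosin of transduction adaptation, at 25.7 and 28.2 RPKM at 0 h and 47.5 and 61.5 RPKM at 24 h (0.98 ± 0.18), and the synaptic gene STX1A. The latter had 4.67 and 5.13 RPKM at 0 h and 11.9 and 14.7 RPKM at 24 h (1.27 ± 0.30), and many other cells make both. The falls numbered 4 without the first 0 h sample, 9 without the second 0 h or the first 24 h sample and 13 without the second 24 h sample. With a pseudocount of 0.1 they numbered 7 of 52, where 1284 of all 12195 features fell. The calls of MYO7A, CALB1 and OCM2 each ended in at least 1 of those fits, with adjusted p up to 0.26, and that of TMC2 ended with the smaller pseudocount (adjusted p = 0.0744). The summed level of the list was 2536 to 2576 RPKM at 0 h and 1410 to 1491 RPKM at 24 h. CALB1 alone accounted for 835 and 776 RPKM and 467 and 229 RPKM of these sums. They follow the most abundant members and do not describe the list as a whole.

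ATOH1 moved against the hair cell list. It had 2.22 and 3.89 RPKM at 0 h and 12.9 and 8.77 RPKM at 24 h, from 17 and 20 reads to 86 and 46 reads, a 3.54-fold higher mean (1.55 ± 0.34, adjusted p = 0.00365). Both 24 h samples lay above both 0 h samples, and the call ended without the first 0 h sample (adjusted p = 0.0591). Of the 7 early hair cell genes tested (median -0.12) it was the one that rose and POU4F3 the one that fell. POU4F3, the transcription factor that maintains hair cells, had 16.8 and 17.6 RPKM at 0 h and 6.32 and 9.6 RPKM at 24 h (-1.04 ± 0.23, adjusted p = 0.00368), and its call ended without the first 24 h sample (adjusted p = 0.0562). ID2, which encodes an inhibitor of factors of the ATOH1 kind, fell from 204 and 183 RPKM to 38.6 and 55.1 RPKM (-2.04 ± 0.29, adjusted p = 0.000139). In treated papillae ID2 was not shown to change over the same labelled day (limma, -0.28 ± 0.29, adjusted p = 0.812). Whether the level of ID2 bears on that of ATOH1 was not tested.

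Markers of other cells moved in both directions beside these lists, and their part in the results was not tested. Mesenchyme markers summed to 854 to 889 RPKM at 0 h and 1410 to 1679 RPKM at 24 h, while 3 of 34 tested rose and 2 fell (median -0.10). At 24 h the sum was mostly VIM, an intermediate filament gene that many cell types make, at 390.0 and 518 RPKM at 0 h and 1043 and 1340.2 RPKM at 24 h (1.39 ± 0.24, adjusted p = 0.000604). FAP, a fibroblast protease, had 4.17 and 4.12 RPKM at 0 h and 24.2 and 16.6 RPKM at 24 h (2.03 ± 0.30). COL14A1, a collagen of connective tissue, had 133 and 129 RPKM at 0 h and 65 and 36.2 RPKM at 24 h (-1.42 ± 0.25). Members of this list thus moved in opposite directions. Cartilage markers had 2 rises and 6 falls of 23 (median -0.39). RUNX2, a factor of bone and cartilage, stood at 2.06 and 2.81 RPKM at 0 h and 10.2 and 17.2 RPKM at 24 h (2.06 ± 0.35). COL2A1, the cartilage collagen, stood at 59.8 and 64.5 RPKM at 0 h and 25.5 and 24.9 RPKM at 24 h (-1.27 ± 0.30). Markers of ion-transporting duct epithelium, a list that also holds CALB1, summed to 1631 to 1660 RPKM at 0 h and 882 to 1158 RPKM at 24 h, with 1 rise and 7 falls of 22 (median -0.11, and 4 or 5 falls with 1 library left out). Leukocyte markers summed to 370 to 378 RPKM at 0 h and 205 to 306 RPKM at 24 h, and 1 of 35 rose and 2 fell (median 0.06). The larger fall was that of AIF1L, a relative of the macrophage gene AIF1 and not itself a specific leukocyte marker. It alone accounted for 182 and 183 RPKM of the list's sums at 0 h and 81.4 and 84.8 RPKM at 24 h. Much of the fall of these sums rests on this 1 gene, so they do not give a level of leukocytes.

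Neuron markers had 0 rises (2 at an unadjusted p under 0.05) and 2 falls of 18 (median 0.07), and their sum was 655 to 714 RPKM at 0 h and 699.65 and 699.95 RPKM in the 24 h samples. Glia markers had 4 rises and 2 falls of 12 (median 0.13), PMP2 among the rises and SOX10, a glial and otic factor, among the falls at 90.8 and 96.7 RPKM at 0 h and 45.3 and 56.1 RPKM at 24 h. With 1 library left out 1 or 2 of them rose, and the median ran from -0.13 without the second 24 h sample to 0.53 without the first. The calls of the other 3 risers, FABP7, FOXD3 and MBP, each ended in some of those fits. The values of FOXD3 rest on 1 and 1 reads at 0 h and 6 and 6 reads at 24 h. Melanocyte markers had 2 rises and 1 fall of 15 (median 0.14), and endothelial markers 1 rise and 1 fall of 13 (median -0.22), with 0 or 1 rise in each when 1 library was left out. The endothelial rise was PROX1, the same gene that rose in the supporting cell list. Among the rest, erythrocyte markers had 1 rise and 0 falls of 8 (0 at an unadjusted p under 0.05, median -0.33), and muscle markers had 0 of either among 11 (1 each way at an unadjusted p under 0.05, median 0.07). In the 4 libraries the members at 0 included MYOG and MYF5 of the muscle list, HBZ of the erythrocyte list, CD86 of the leukocyte list, AQP2 of the duct list and IBSP of the cartilage list.

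**Figure D2:**
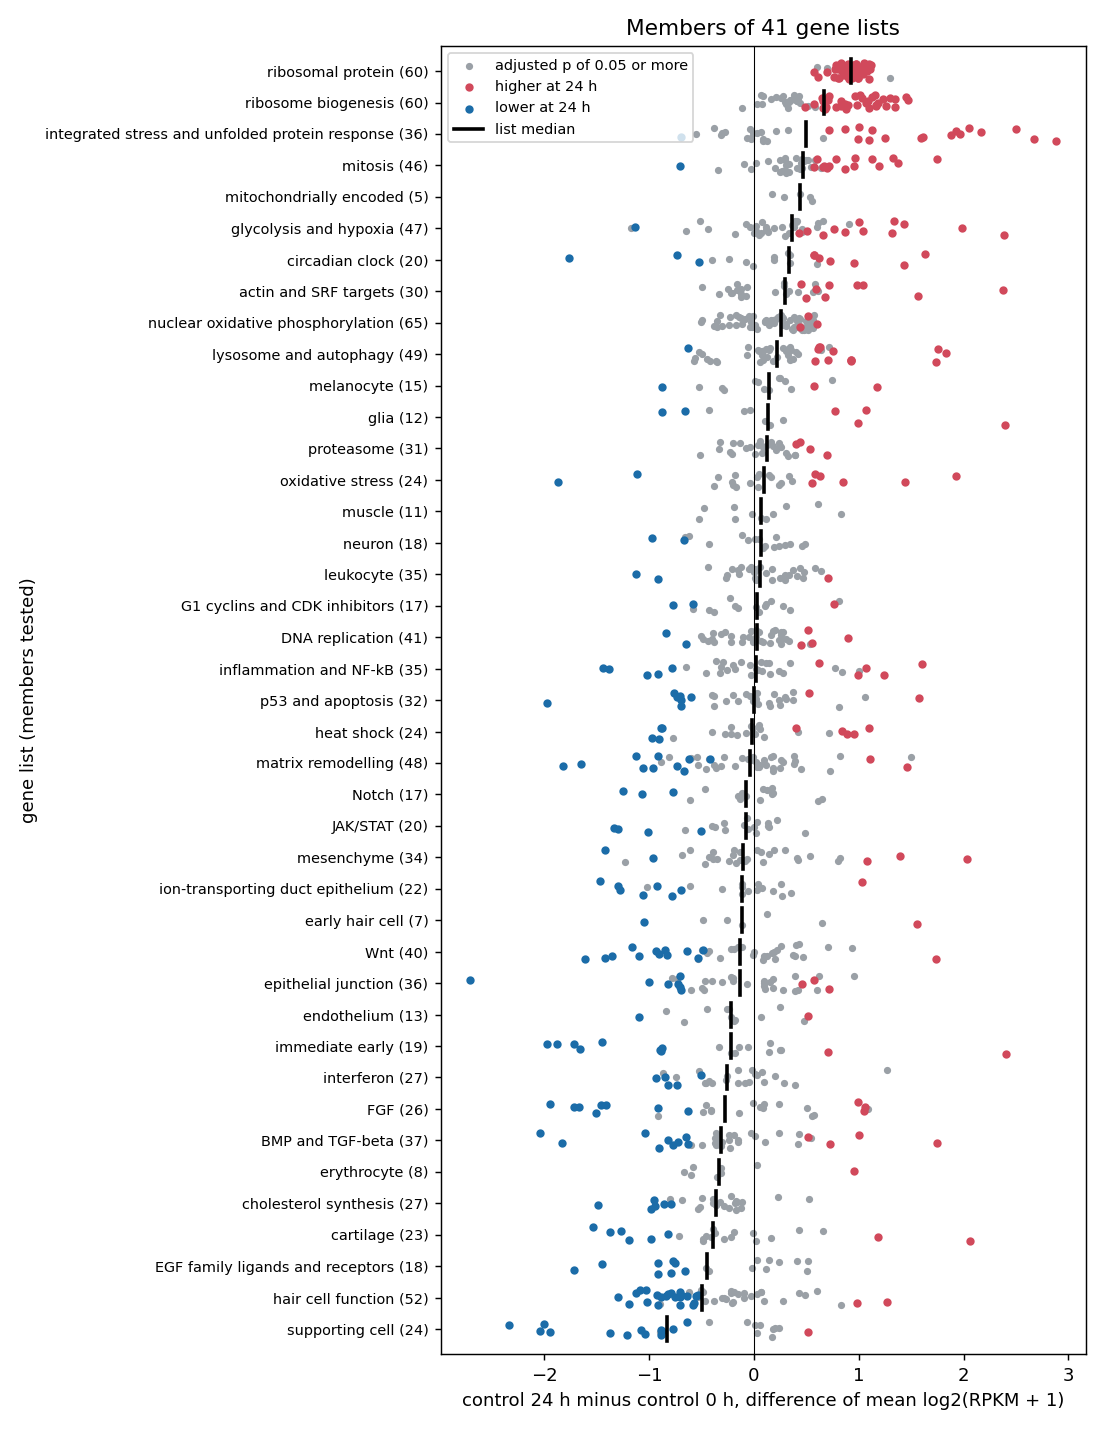
Fitted difference, control 24 h minus control 0 h, of every tested member of the 41 gene lists, 1 point per gene, with the number of members tested beside each list and a black bar at its median. Coloured points passed at an adjusted p under 0.05, and the list medians run from -0.83 for supporting cells to 0.92 for ribosomal proteins.

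Several immediate early genes and genes induced by ERK signalling fell. EGR1, an immediate early transcription factor, had 104 and 74.9 RPKM at 0 h and 22.6 and 23.9 RPKM at 24 h (-1.88 ± 0.41, adjusted p = 0.00334). DUSP6, a phosphatase that answers to ERK activity and curbs it, had 45.8 and 42.5 RPKM at 0 h and 14.5 and 11.1 RPKM at 24 h (-1.72 ± 0.23, adjusted p = 9.55e-05). ARC, an immediate early gene best known from neurons, fell from 13.5 and 13 RPKM to 1.79 and 0.631 RPKM, a 10.9-fold lower mean (-2.74 ± 0.39, adjusted p = 0.000146). In the 3 genes the times were well apart. Of 19 immediate early genes 8 fell and 2 rose (median -0.22), and the risers were MAFF and ATF3, a stress-induced partner of the ATF4 pathway, at 129.8 and 113 RPKM at 0 h and 199.7 and 197 RPKM at 24 h (0.71 ± 0.17). The call of ATF3 ended without the second 0 h sample (adjusted p = 0.065). The EGF family list had 8 falls and 0 rises of 18 (limma, 2 higher at an unadjusted p under 0.05), with a median of -0.45. Its fallers included the ERK feedback gene SPRY2 at 14.9 and 18.6 RPKM at 0 h and 6.77 and 10.2 RPKM at 24 h (-0.91 ± 0.20). Another was ADAM17, the protease that sheds EGF ligands, at 25.1 and 24.8 RPKM at 0 h and 12.3 and 13.3 RPKM at 24 h (-0.91 ± 0.14). The 4 largest falls of the EGF family list were those of DUSP6, DUSP5, SPRY2 and ADAM17, none of which encodes a ligand or receptor of the family. Without the first 0 h sample 5 members of each of these 2 lists fell, as did 5 immediate early genes without the first 24 h sample.

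The other growth factor lists had more falls than rises, and DUSP6 and SPRY2 stand in the EGF and FGF lists alike. DUSP6 also counts among the immediate early genes, and FGFR3 among both the supporting cell and the FGF genes, so these lists are not separate observations. Of 26 FGF genes 8 fell and 3 rose (median -0.28), and 7 fell when any 1 library was left out. FGF3, a ligand of the developing ear, had 17.5 and 17.8 RPKM at 0 h and 5.41 and 4.37 RPKM at 24 h (-1.67 ± 0.17, adjusted p = 1.24e-05). In treated papillae FGF3 was nearly absent, as TMC2 was, at 0 and 0.191 RPKM at 0 h and 0 and 0.149 RPKM at 24 h. Whether its fall in controls goes with that of the hair cell genes was not tested. The receptor gene FGFR1 went the other way, with 58.6 and 78.9 RPKM at 0 h and 109 and 188 RPKM at 24 h (1.06 ± 0.23), a call that ended without the first 0 h or the second 24 h sample (adjusted p = 0.0558 and 0.0623). Of 40 Wnt genes 12 fell and 1 rose (median -0.13), and 6 fell without the first 0 h sample. The receptor gene FZD10 had 10.01 and 10.1 RPKM at 0 h and 2.99 and 2.29 RPKM at 24 h (-1.61 ± 0.21). The secreted inhibitor gene SFRP1 had 11.3 and 11.9 RPKM at 0 h and 4.35 and 3.12 RPKM at 24 h (-1.43 ± 0.23). LEF1, a nuclear effector and target of the pathway, was the riser at 1.32 and 1.78 RPKM at 0 h and 8.74 and 6.3 RPKM at 24 h (1.73 ± 0.28, adjusted p = 0.000332). Of 37 BMP and TGF-beta genes 9 fell and 4 rose (median -0.32), and 4 fell without either 0 h sample and 5 without the second 24 h sample. The activin subunit gene INHBA had 13.9 and 10.4 RPKM at 0 h and 2.5 and 2.81 RPKM at 24 h (-1.83 ± 0.33). FST, which encodes the activin antagonist follistatin, had 2.98 and 4.08 RPKM at 0 h and 11.4 and 17.2 RPKM at 24 h (1.74 ± 0.32, adjusted p = 0.00103). INHBA and FST thus moved in opposite directions, and neither overlapped between times. The follistatin-like gene FSTL3 of the same list fell as INHBA did. It had 24.8 and 23 RPKM at 0 h and 9.07 and 13.5 RPKM at 24 h (-1.04 ± 0.22, adjusted p = 0.00247).

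Of the largest falls, CLDN8, a tight junction claudin, had 21.2 and 22 RPKM at 0 h and 1.56 and 3.69 RPKM at 24 h (-2.70 ± 0.41, adjusted p = 0.000236). PLEKHG1, which encodes a guanine nucleotide exchange factor, had 58.2 and 56.6 RPKM at 0 h and 8.39 and 10.1 RPKM at 24 h (-2.52 ± 0.29, adjusted p = 2.98e-05). In PLEKHG1 the 2 samples of a time were nearly alike, and in CLDN8 the 24 h samples rest on 14 and 26 reads. FSHB, the beta chain gene of follicle stimulating hormone, fell from 36.3 and 27.9 RPKM to 6.17 and 2.4 RPKM (-2.74 ± 0.33, adjusted p = 4.3e-05). IP6K2, an inositol phosphate kinase, was abundant and fell from 219 and 217 RPKM to 42.3 and 47.9 RPKM (-2.25 ± 0.29). The others, WSCD2, the growth factor carrier gene IGFBP3 and the interferon gene IFNA3, had differences of -2.32, -2.15 and -2.05. Of 36 epithelial junction genes 3 rose and 7 fell (median -0.13), and 2 to 6 fell with 1 library left out. Of 48 matrix remodelling genes 2 rose and 10 fell (median -0.04), and 6 to 9 fell with 1 library left out. Within the latter the plasminogen activator genes parted, with PLAU at 3.98 and 4.59 RPKM at 0 h and 15.4 and 11.8 RPKM at 24 h (1.46 ± 0.23). PLAT, in contrast, stood at 7.83 and 6.63 RPKM at 0 h and 1.71 and 1.54 RPKM at 24 h (-1.65 ± 0.28).

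Immune and lipid lists followed. Of 35 inflammation and NF-kB genes 5 rose and 5 fell (median 0.02), and 0 or 1 rose and 2 to 4 fell when 1 library was left out. PTGS2, the inducible prostaglandin synthase, had 16.4 and 14.9 RPKM at 0 h and 47.7 and 51.5 RPKM at 24 h (1.60 ± 0.44, adjusted p = 0.014), with adjusted p of 0.0513 to 0.0732 when 1 library was left out. Interferon genes had 0 rises (1 at an unadjusted p under 0.05) and 5 falls of 27 (median -0.26, and 2 to 5 falls with 1 library left out). JAK/STAT genes had 0 rises (0 at an unadjusted p under 0.05) and 4 falls of 20 (median -0.08, and 1 to 4 falls with 1 library left out). SOCS4, a suppressor of cytokine signalling, was among them at 13.5 and 11.9 RPKM at 0 h and 4.13 and 4.75 RPKM at 24 h (-1.33 ± 0.20). Of 27 cholesterol and fatty acid synthesis genes 6 fell and 0 rose (1 at an unadjusted p under 0.05), with a median of -0.37. The desaturase gene FADS2 had 50.4 and 35.1 RPKM at 0 h and 16.3 and 12.5 RPKM at 24 h (-1.49 ± 0.19, adjusted p = 4.9e-05).

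The same labelled day was compared in streptomycin-treated papillae, whose 0 h samples follow 24 h of exposure. There 221 features passed (1.81%), 82 rising (0.672%) and 139 falling (1.14%). The control and treated comparisons share no sample. Calls in the same direction numbered 65, which is 2.06% of the control calls and 29.4% of the treated calls, and 24 features passed in opposite directions. Of the 82 treated rises, 14 rose and 15 fell in controls. Of the 139 treated falls, 51 fell and 9 rose in controls. Over all features tested, 14.4% rose and 11.5% fell in controls. The difference between the 2 changes was itself tested. It passed for 1258 features (10.3%), of which 789 had the more positive change in controls (6.47%) and 469 the more negative (3.85%). Of the features that passed in controls, 1069 also passed for the difference, 33.9% of the control calls and 85.0% of the difference calls. The difference contains the control change and the same control samples, so this overlap is partly built in and is no separate evidence. Counts for the difference moved with single libraries, from 291 to 1123 for the more positive and from 170 to 374 for the more negative. They were 311 and 374 without the first treated 24 h sample and 1123 and 266 without the second.

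**Figure D3:**
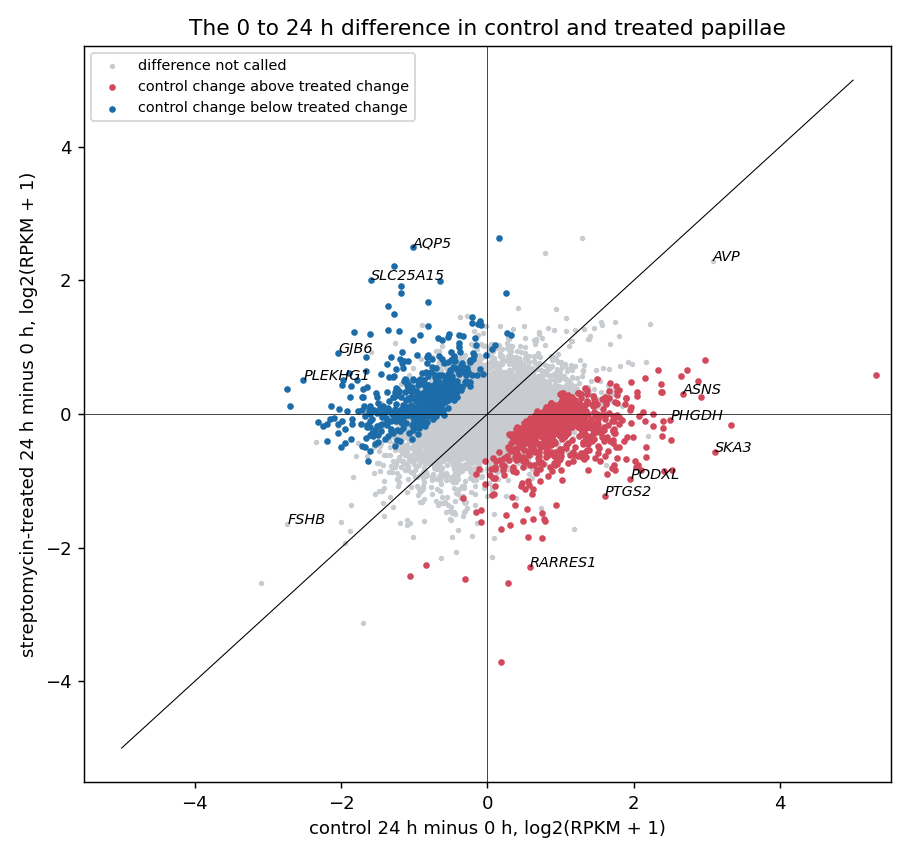
Each point is 1 of 12195 features, with the fitted control difference between 24 h and 0 h on the horizontal axis and the treated one on the vertical axis, both in log2(RPKM + 1), and a diagonal line of equal change. Coloured points, 789 and 469, passed for the difference of the 2 changes, and named genes such as SKA3 and ASNS lie far to the right near the horizontal line, while AVP and FSHB lie nearer the diagonal.

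Amino acid synthesis genes stayed low in treated papillae. ASNS stood at 21.5 and 21.5 RPKM at treated 0 h and 25.3 and 28.2 RPKM at treated 24 h, both close to the control 0 h level, and its control change exceeded the treated one by 2.37 ± 0.30 (adjusted p = 0.000376). PHGDH stood at 1.6 and 1.54 RPKM and 1.2 and 1.69 RPKM (difference of changes 2.58 ± 0.59, adjusted p = 0.0114). ATF4 did not start from the same level, with 549 and 559 RPKM at treated 0 h. It stood at 394 and 591 RPKM at treated 24 h (1.80 ± 0.28, adjusted p = 0.00136). Over the stress response list 14 of 36 had the more positive change in controls and 0 the more negative (4 at an unadjusted p under 0.05). SKA3 had the largest difference of all genes that could be named, with 2.73 and 2.19 RPKM and 0.911 and 1.83 RPKM in treated papillae (3.68 ± 0.56, adjusted p = 0.00118).

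Ribosome biogenesis genes passed for the difference in 20 of 60 cases, all more positive in controls, with a median difference of 0.61, and none passed in treated papillae (limma, 0 at an unadjusted p under 0.05). Ribosomal protein genes passed for the difference in 3 of 60, although the median was 0.66, and the treated 24 h samples were far apart at summed levels of 20010 and 30890 RPKM. Mitosis genes were not shown to differ, with 0 more positive and 1 more negative of 46 (0 and 4 at an unadjusted p under 0.05). The median difference of changes was -0.25, with a negative value in 33. In treated papillae 7 mitosis genes rose, with a median of 0.67 against 0.47 in controls. At an unadjusted p under 0.05 (limma), 37 were higher in treated papillae and 19 in controls. No count over all features at that threshold is given for treated papillae, so these counts lack a background and are description only. Replication genes were more negative in controls in 12 of 41 and more positive in 0 (0 at an unadjusted p under 0.05), and 9 rose in treated papillae. For PCNA the treated values were 38 and 36.8 RPKM at 0 h and 54.1 and 69 RPKM at 24 h (difference of changes -0.97 ± 0.30, adjusted p = 0.0497). ATOH1 values were higher at 24 h in treated samples too, 3.999 and 4.84 RPKM against 8.52 and 19.7 RPKM. That treated change narrowly missed the threshold (1.38 ± 0.34, adjusted p = 0.0501). It was not shown to differ from the control change (0.18 ± 0.49, adjusted p = 0.869).

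For some genes the change was the more negative in controls. GJB6 went from 317 and 374 RPKM at treated 0 h to 643 and 654 RPKM at treated 24 h (-2.95 ± 0.46, adjusted p = 0.00126). SLC25A15, a mitochondrial ornithine carrier, had 16.9 and 19.7 RPKM at 0 h and 3.97 and 7.22 RPKM at 24 h in controls. In treated papillae it had 10.9 and 11.5 RPKM and 47.2 and 48.9 RPKM (-3.60 ± 0.32, adjusted p = 2.29e-05), the most negative difference among genes that could be named. AQP5, a water channel, had 2.9 and 4.51 RPKM at 0 h and 1.2 and 1.36 RPKM at 24 h in controls. Its treated values were 11.8 and 21 RPKM at 0 h and 67.7 and 129.7 RPKM at 24 h (-3.52 ± 0.77, adjusted p = 0.009). EGR1 had 92.7 and 109.9 RPKM at treated 0 h and 111 and 130.4 RPKM at treated 24 h (-2.13 ± 0.58, adjusted p = 0.0286). DUSP6 had 42 and 47.8 RPKM and 37.6 and 57.9 RPKM (-1.78 ± 0.33, adjusted p = 0.00341), so its treated times overlapped. Hair cell genes allow little comparison, since TMC2 was at 0.243 and 0.153 RPKM at treated 0 h and the list summed to 518 to 566 RPKM there. Among 24 supporting cell genes 5 changed more negatively in controls and 0 more positively (2 at an unadjusted p under 0.05).

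**Figure D4:**
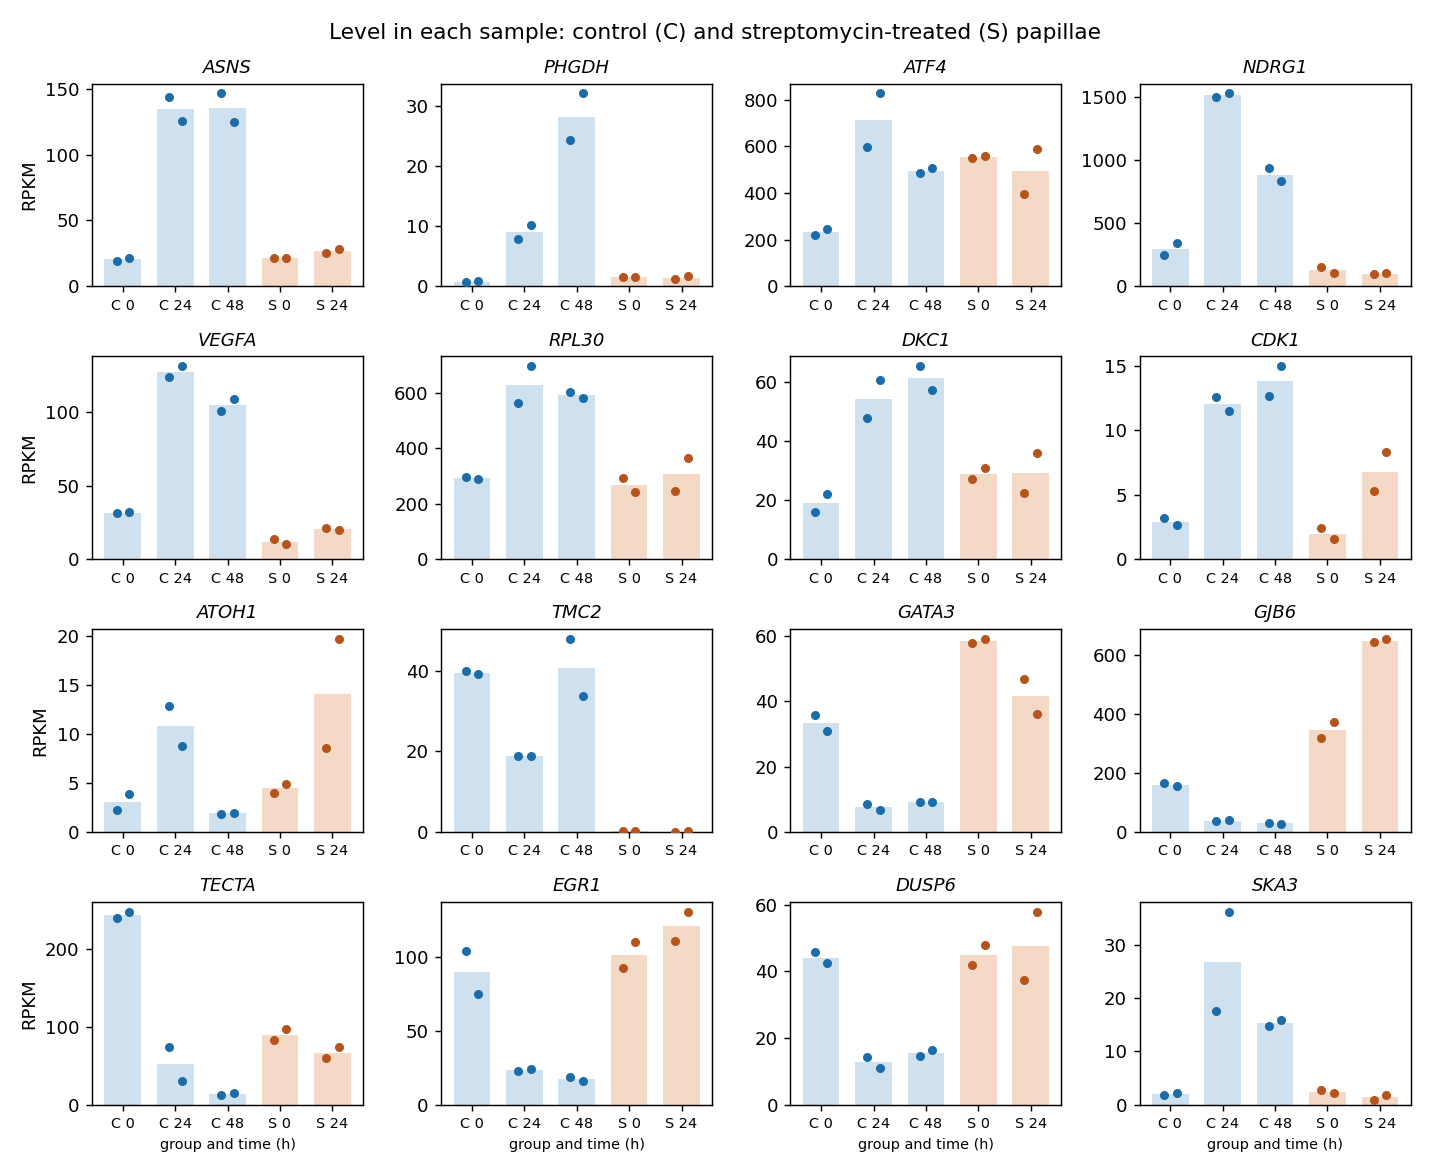
RPKM of 16 genes in each sample, with control papillae at 0, 24 and 48 h (C) and streptomycin-treated papillae at 0 and 24 h (S), a point per sample and a bar for the mean of 2. ASNS and PHGDH are high only in the control samples at 24 and 48 h among these 5 groups, whereas GJB6 is low in the control samples at 24 and 48 h and highest in the treated samples at 24 h.

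Values of the next day in controls are set beside those of 24 h, with which they share the 24 h samples. Between 24 and 48 h 131 features passed (1.07%), 90 higher at 48 h (0.738%) and 41 lower (0.336%). This split turned with the scaling, to 100 higher and 156 lower after median-of-ratios rescaling, and the median over all features was 0.08. Without the first 24 h sample 0 features passed (limma, 861 higher and 472 lower at an unadjusted p under 0.05), and without the second 36 were higher and 20 lower. The 48 h values of ASNS were 147 and 125 RPKM, of GATA3 9.003 and 9.08 RPKM and of GJB6 28.9 and 27.8 RPKM, all near those of 24 h. TMC2 stood at 47.9 and 33.7 RPKM and OTOF at 99.5 and 86.3 RPKM, around their levels at 0 h. The hair cell list summed to 1326 to 1658 RPKM at 48 h against 2536 to 2576 RPKM at 0 h. Such a sum follows the most abundant members and does not describe the list as a whole. CALB1, the most abundant member of the list at 0 h, stood at 179 and 129 RPKM at 48 h, below both values at 24 h. Of 52 members tested, 40 had a positive difference between 24 and 48 h and 12 a negative one, and 1 passed as higher and 0 as lower. The median of the members was 0.22, against 0.08 over all features. No share of positive differences over all features is given, so this count lacks a background and is description only. ATOH1 stood at 1.83 and 1.91 RPKM, below both values at 0 h.

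Later control samples, 1 each at 72, 96 and 120 h and 2 each at 144 and 168 h, show several courses after the first labelled day. PHGDH went on from 24.4 and 32.2 RPKM at 48 h to 53.9, 168 and 214 RPKM at 72, 96 and 120 h and 219 and 251 RPKM at 168 h. ASNS stayed between 89.1 RPKM at 72 h and 164 RPKM at 120 h. SKA3, ATF4 and NDRG1 were highest at 24 h among all control samples. At 168 h SKA3 stood at 1.9 and 1.47 RPKM, ATF4 at 202 and 215 RPKM and NDRG1 at 379 and 282 RPKM, all near their 0 h levels. GATA3 remained between 6.08 and 11.3 RPKM from 72 h on, and TECTA between 1.91 and 12.4 RPKM. TMC2 and OTOF reached 52 and 117 RPKM in the 72 h sample. At 168 h they stood at 5.93 and 5.06 RPKM and at 21.7 and 12.3 RPKM, so that for these 2 genes the values at 24 h lay below those of the next labelled times as well as below 0 h. No test was made across these times, and OTOF had not passed between 0 and 24 h.

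**Figure D5:**
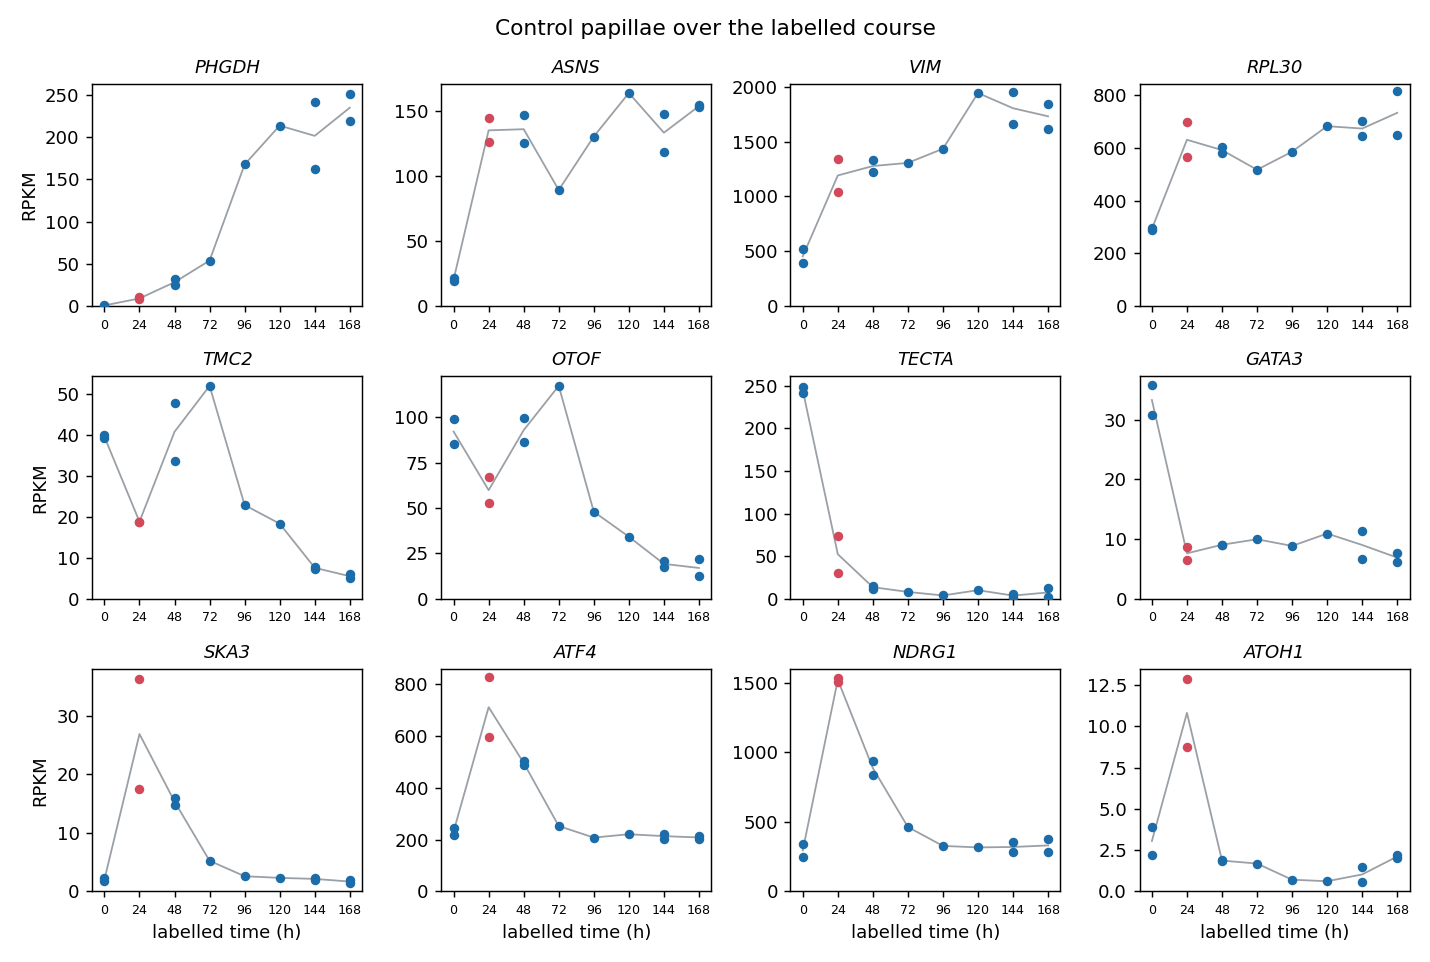
RPKM of 12 genes in every control sample against the labelled time from 0 to 168 h, with the 24 h samples in red, the others in blue and a grey line through the means (1 sample at 72, 96 and 120 h). SKA3, ATF4, NDRG1 and ATOH1 peak at 24 h, and GATA3 and TECTA drop by 24 h and stay low. TMC2 and OTOF have lower values at 24 h than at 0 and 48 h, though OTOF did not pass between 0 and 24 h.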

How the data were processed

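Total RNA of chicken basilar papillae was sequenced with Illumina protocols, per the labels' protocols. The deposited table gives RPKM, computed by the authors, for 17684 features. The submitters' processing notes list TopHat 1.4.0 and Partek 6.6 without roles. No genome build is given in the sources used here. Of 32 columns, 4 match no sample by title and were not used. A feature was kept if 2 or more of the 28 samples reached 1 RPKM, which left 12195, and these were fitted as log2(RPKM + 1) with limma 3.58.1 in R 4.3.3 (eBayes with an intensity trend, two-sided, Benjamini-Hochberg adjustment), with 1 mean for each of 16 groups and 12 residual degrees of freedom. Figures were drawn with matplotlib 3.10.9.

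Genes are named by a rule: the 12 largest rises and falls with a symbol, a mean of at least 5 RPKM at 0 or 24 h and no overlap, up to 4 members per direction of each of 41 lists, 22 followed genes (18 tested), and the 6 largest each way for the difference of changes. A few of these are not reported here. The comparison, lists and followed genes were chosen with earlier results of these data known. RPKM steps gave the reads behind low values. Alternatives were no filter, no trend, a pseudocount of 0.1, median-of-ratios rescaling, control samples only, only the samples compared, a replicate block and leaving out each library. The fit was tested on simulated data.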

Additional observations from a re-analysis of the deposited data

Results flagged for a closer look

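The results below drew attention because the change from 0 to 24 h differed between control and streptomycin-treated papillae in a test of the difference itself (limma, adjusted p under 0.05). Over all features, the control change was the more positive in 789 and the more negative in 469. Among the genes with the largest control rises, the difference of changes on the log2(RPKM + 1) scale was 3.68 for SKA3, 2.89 for EDN2, 2.67 for GPNMB, 2.61 for PMP2, 2.58 for PHGDH and 2.50 for MAFF. It was 2.39 for PSPH, 2.37 for ASNS, 2.08 for OLAH, 2.08 for MAT1A and 2.05 for FNIP2. AVP, the other of the 12, rose in both arms and was not shown to differ (0.78, adjusted p = 0.464).

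Among the largest control falls the difference of changes was -3.11 for ARC, -3.02 for PLEKHG1, -2.95 for GJB6, -2.82 for CLDN8, -2.19 for WSCD2, -2.07 for IP6K2, -2.07 for IGFBP3 and -1.76 for ID2. FSHB, TECTA and IFNA3 were not shown to differ (adjusted p = 0.151, 0.17 and 0.0629).

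The largest differences also included PODXL, which encodes a sialomucin (2.92), RARRES1, a retinoic acid responsive gene (2.87), PTGS2 (2.83) and RUNX2 (2.83) in the positive direction. In the negative direction they included SLC25A15 (-3.60), AQP5 (-3.52), ATP13A4, a P5-type ATPase gene (-3.49), and the matrix protease gene ADAMTS1 (-3.06). RARRES1 and AQP5 did not pass in controls alone (adjusted p = 0.437 and 0.18), and the call for RARRES1 ended without the second control 0 h, the first treated 0 h or the second treated 24 h sample (adjusted p = 0.0596 to 0.0995).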

How the results depend on the processing

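In the control comparison of 24 h with 0 h, the counts of rises and falls stayed within 1.5 times of 1755 and 1398 under another pseudocount, filter, trend, scaling (1835 and 1806) or set of samples, except that falls numbered 865 with only the samples compared. Leaving out 1 sample gave 785 to 1291 rises and 668 to 922 falls. A replicate block by sample number gave 2079 and 1706. The labels do not say that the number marks a shared batch, and the 2 same-numbered pairs deviated together across features at a correlation of 0.233. The difference of changes gave 481 and 282 with only the samples compared, 1104 and 732 with the replicate block, and 291 to 1123 and 170 to 374 with 1 sample left out. The 48 h comparison gave 35 and 16 with control samples only, 13 and 7 with only the samples compared, 199 and 81 with the replicate block, 100 and 156 after median-of-ratios rescaling, and 0 to 36 and 0 to 20 with 1 sample left out (limma, 841 to 1387 higher and 257 to 524 lower at an unadjusted p under 0.05). Of 199 genes that passed and could be named, 101 passed under every alternative run and 98 did not. The difference of CD74, which did not pass, was 0.17, and ran from -0.30 without the second 24 h sample to 0.65 without the first. The cause of these shifts was not tested. The left-out and reduced fits also hold fewer samples, and the part of sample number was not separated from that of the sample dropped. With 2 samples a group, small differences cannot be resolved.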
